A study of Arabidopsis thaliana with 12 samples.

Results

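The steady genes are well-expressed genes of Arabidopsis thaliana whose array signal, relative to the middle of each array, differed little between plants at low CO2 and plants at normal CO2. They number 133 of the 692 probes that the platform annotation ties to exactly 1 gene, on an array of 3439 probes in all. Total RNA came from wild-type plants of the Columbia 0 ecotype. One group of 6 samples came from plants at normal CO2, titled day 0, and the other 6 samples came from plants kept for 48 h in air with 0.003% CO2 by volume, titled day 2, so CO2 level and time cannot be told apart. No tissue is named, and whether samples stand for separate plants is not stated, so the spread between them may be technical.

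The members were chosen on these same data. Each sample was divided by its median over all probes, and a gene was kept where its deposited intensity at normal CO2 averaged 0.6 or more, the ranges of the 6 low and 6 normal CO2 values overlapped, and the ratio of group means, low over normal, lay from 0.67 to 1.5. These values are given below as a description and carry no test, because the choice fixed them. Of the 692 single-gene probes, 309 reached the signal minimum, 143 of those lay in the ratio window and 138 had overlapping ranges as well. A further 5 of these, PSAN, AT1G29070, LHB1B2, PRK and AT1G54500, were left out by name. Among the other well-expressed probes, 73 lay above the window and 93 below it, and 61 of these 166 had overlapping ranges all the same. Only 5 probes lay in the window without overlap, AT1G03810, AT1G34270, AT4G31470, AT1G69910 and AT4G30680, at ratios from 0.678 to 0.755.

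Plants fix CO2 through the Calvin-Benson cycle, and at very low CO2 the enzyme Rubisco takes up oxygen more often, so that carbon is lost through photorespiration while the supply of sugars drops. Genes whose transcripts keep their level through such a treatment are of use as references, because array intensities are relative and need a yardstick. A level that stays the same relative to other transcripts does not show that the amount of RNA per cell stayed the same.

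The steady genes sat in the upper part of the array, where the signal minimum of the rule placed them. Their deposited intensities at normal CO2 averaged from 0.601 to 11.4, with a median of 1.06, and they ranged from the 54.7th to the 99.5th percentile of all probes. Of the 133, 72 averaged 1 or more, 18 averaged 2 or more and 5 averaged 5 or more. The dimmest of those 18 was at the 90.2nd percentile of all probes and the dimmest of those 5 at the 98.0th. None of their 1596 values was 0. The ratio of median-divided means, low over normal, had a median of 0.975, with 75 genes below 1 and 58 above, and 46 genes lay between 0.9 and 1.1.

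**Figure D1:**
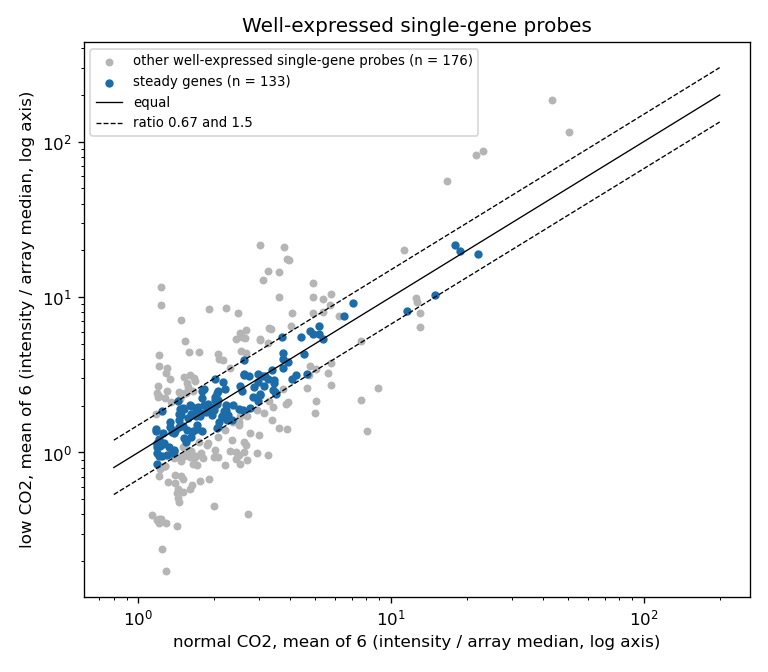
Mean intensity divided by the array median, normal CO2 on the horizontal and low CO2 on the vertical axis (6 samples each, both axes logarithmic), for the 309 well-expressed single-gene probes. The 133 steady genes lie by construction between the dashed lines at ratios of 0.67 and 1.5; the grey points include the 5 genes left out by name and the 5 without overlap.

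How steady these genes appeared depended on what the arrays were divided by. The array median averaged 0.519 ± 0.0404 over the normal and 0.359 ± 0.0111 over the low CO2 samples (SD, n = 6 each), and division by them raises low CO2 values relative to normal ones. On the deposited scale, without division by the median, 128 of the 133 genes had a lower mean at low CO2, against 71.8% of all probes. The median ratio of means was 0.675. Deposited values already had means near 1 per array, so that scale is itself a relative one. AT1G13990, AT3G20680, AT5G06990, AT2G46300 and AT5G06790 were the 5 exceptions, at deposited ratios from 1.01 to 1.05. The deposited ranges of the groups did not overlap for 43 genes, lower at low CO2 in each, where 27.3% of all probes were separated in that direction. No steady gene was separated upward, against 7.24% of all probes. The rule used this contrast, so nothing is read from these shares.

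The steady genes together made up 5.38% ± 0.211 of the summed intensity of a normal CO2 array and 3.87% ± 0.313 of a low CO2 array (SD, n = 6 each). The normal CO2 samples ranged from 5.13% to 5.66% and the low CO2 samples from 3.53% to 4.26%, without overlap. Divided by the array median instead, the median steady gene stood at 1.89 to 2.20 in the normal CO2 samples and at 1.87 to 2.19 in the low CO2 samples. Their level relative to the array median was held by the rule. That median averaged 0.519 at normal and 0.359 at low CO2, on deposited values whose means were alike between arrays. A level held relative to it therefore lowers the share of all signal at low CO2. The smaller share follows largely from the rule and the array medians and is not a separate observation.

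Quantile normalization, which sets the whole distribution of every array equal, gave the steady genes a median fold change between those on the deposited and the median-divided scale. Single genes could lie outside that span. AT2G33180 was at -0.91 after quantile normalization, -0.76 on the deposited and -0.22 on the median-divided scale. The median log2 fold change of the steady genes, low minus normal, was -0.22 after quantile normalization, -0.55 on the deposited scale and -0.018 after division by the median. Over all 3439 probes the medians were -0.055, -0.60 and -0.064 in the same order, and over the 309 well-expressed single-gene probes -0.29, -0.64 and -0.11. After quantile normalization 99 steady genes were below 0 and 34 above it, and 119 had a fold change inside the ratio window. In that fit limma called 26 steady genes lower and 0 higher (adjusted p under 0.05; 35 and 1 at unadjusted p), where it called 42.4% of all probes, 23.5% lower and 18.9% higher. Median-divided values gave 8 calls lower and 5 higher, against 41.5% of all probes in either direction, 20.4% lower and 21.1% higher. The calls were fewer where adjacent replicates were treated as alike. With adjacent pairs as a random block they fell to 14 on quantile normalized values (29.3% of all probes) and 1 on median-divided values (26.2%). On averages of adjacent pairs they fell to 3 (18.0% of all probes) and 0 (14.2%). With the replicate number as a block median-divided values gave 24 calls, 14 lower and 10 higher, against 46.7% of all probes. On deposited values limma called 74 lower and 0 higher (84 and 0 at unadjusted p), against 48.7% of all probes in either direction, 37.9% lower and 10.8% higher. No share of all probes is given at unadjusted p, so the counts at unadjusted p have no baseline. All these counts describe how the choice of scale moves the members and test nothing.

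**Figure D2:**
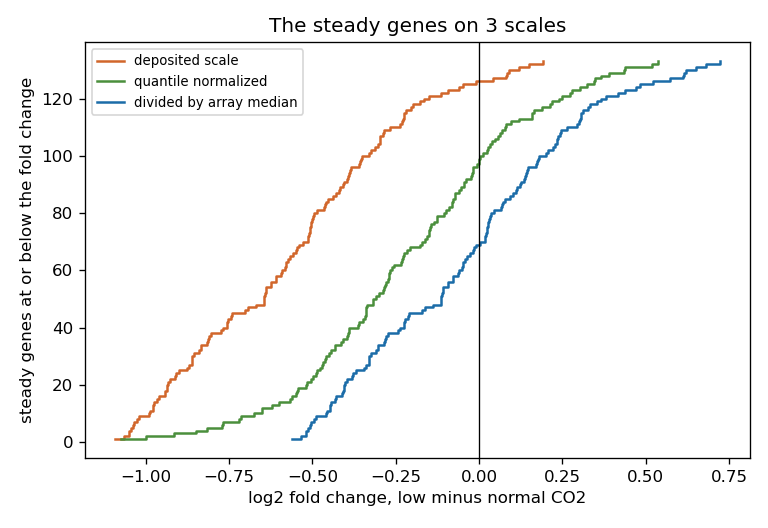
Cumulative number of the 133 steady genes by log2 fold change, low minus normal CO2, on the deposited scale, after quantile normalization and after division by the array median. The curves are shifted against each other, with medians of -0.55, -0.22 and -0.018.

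The brightest steady gene was AT2G33180, which averaged 11.4 ± 0.842 at normal and 6.80 ± 1.07 at low CO2 in deposited units (SD over 6 samples each). Relative to the array median its lowest, middle and highest values were 18.2, 22.6 and 26.1 at normal CO2 and 15.7, 18.3 and 23.4 at low CO2. The groups overlapped on that scale and were separate on the deposited one. AT1G17160 ran from 13.6 over 19.8 to 23.5 at normal and from 16.2 over 19.7 to 24.1 at low CO2. Its direction turned with the scale: its log2 fold change was 0.092 on median-divided values and -0.49 ± 0.13 (SE) after quantile normalization. AT4G16410 was at 13.5, 16.3 and 23.8 at normal and 19.4, 21.4 and 24.4 at low CO2, also with fold changes of opposite sign, 0.31 on median-divided and -0.27 ± 0.12 on quantile normalized values. For these and the other loci named by number only, the annotation used here gives no gene name.

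The next in brightness, AT4G00870 and AT1G62250, lay near the lower end of the window, at ratios of 0.693 and 0.706. AT4G00870 averaged 7.63 ± 1.36 and 3.70 ± 0.654 in deposited units, and AT1G62250 averaged 5.90 ± 1.06 and 2.91 ± 0.658 (SD, n = 6 each). After quantile normalization both had log2 fold changes near -1, at -1.08 ± 0.15 and -0.998 ± 0.15. Limma called both lower in that fit, and it called AT4G00870 lower on median-divided values as well, at -0.51 ± 0.18, a call that was lost with adjacent pairs as a random block. The other 5 of the 10 brightest, AT2G37510, AT2G04540, AT4G25290, AT2G22890 and AT4G05070, averaged 2.66 to 3.64 at normal CO2, with ratios of 0.999 to 1.30. Their quantile normalized fold changes ran from -0.41 to -0.15. After quantile normalization the brighter 67 of the 133 had a median log2 fold change of -0.36 and the dimmer 66 of -0.046. No such split is given for other probes. The median was -0.29 over the 309 well-expressed single-gene probes and -0.055 over all probes, so this difference need not be particular to the steady genes.

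The gene with the ratio closest to 1 was AT4G25290, at 0.999. Its median-divided values at normal CO2 were 3.66 and 3.37 in replicates 1 and 2, 6.57 and 6.43 in replicates 3 and 4, and 5.86 and 6.41 in replicates 5 and 6. At low CO2 they were 5.66, 4.55, 6.39, 6.26, 4.70 and 4.69 in the same order. Adjacent replicates were alike except replicates 1 and 2 at low CO2, and the nearly equal group means were averages over pairs that differed.

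AT3G58830 had a ratio of 1.004, with lowest, middle and highest values of 1.77, 3.70 and 4.45 at normal and 2.76, 3.42 and 4.13 at low CO2. AT1G70200, at 0.994, ran from 1.07 over 1.32 to 1.81 and from 1.05 over 1.33 to 1.62. AT2G38550, at 1.01, ran from 2.20 over 2.998 to 3.999 and from 2.37 over 3.22 to 3.60. In each of these 3 genes the low CO2 samples spanned a narrower range than the normal CO2 samples. AT1G33250, also at 1.01, ran from 1.14 over 1.93 to 2.09 and from 1.42 over 1.71 to 2.29. AT1G28150, at 0.993, had the widest normal CO2 range of these 6 in relative terms, from 0.718 over 2.29 to 2.81, against 1.60, 2.09 and 2.49 at low CO2.

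Samples of a group agreed most closely for AT1G74730, with an SD of 0.143 on the log2 scale within groups. Its median-divided values were 2.68, 2.77 and 3.60 at normal CO2 and 2.68, 2.84 and 3.11 at low CO2, as lowest, middle and highest. On the deposited scale it averaged 1.54 ± 0.189 and 1.03 ± 0.0930 (SD, n = 6 each), without overlap. The next smallest spreads, 0.165 to 0.184, belonged to AT4G35980, AT3G16310, AT5G38310 and AT3G54550, whose ratios were 1.01, 1.17, 1.18 and 0.858. AT3G16310 had 1 low CO2 sample, replicate 3, at 1.12 below the 1.37 to 1.47 of the others. Small spread and a ratio near 1 were not the same property, since AT1G28150 paired a ratio of 0.993 with an SD of 0.558.

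At the other extreme AT3G51500, AT4G20690 and AT1G67800, picked out after their values were seen, had SDs of 1.27, 1.01 and 0.857. AT3G51500 had a value of 0.205 in normal CO2 replicate 2 against 2.28 to 4.33 in the other 5, and 1.03 in low CO2 replicate 2 against 2.09 to 3.04. AT4G20690 stood at 0.25 in normal CO2 replicate 4 against 1.75 to 3.57 in the others. In both genes 1 sample set most of the range of a group. The 95% interval of the fold change of AT3G51500 on median-divided values was far wider than the ratio window. It ran from -1.50 to 1.55 on the log2 scale without a block and from -2.55 to 2.60 with adjacent pairs as a random block.

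**Figure D3:**
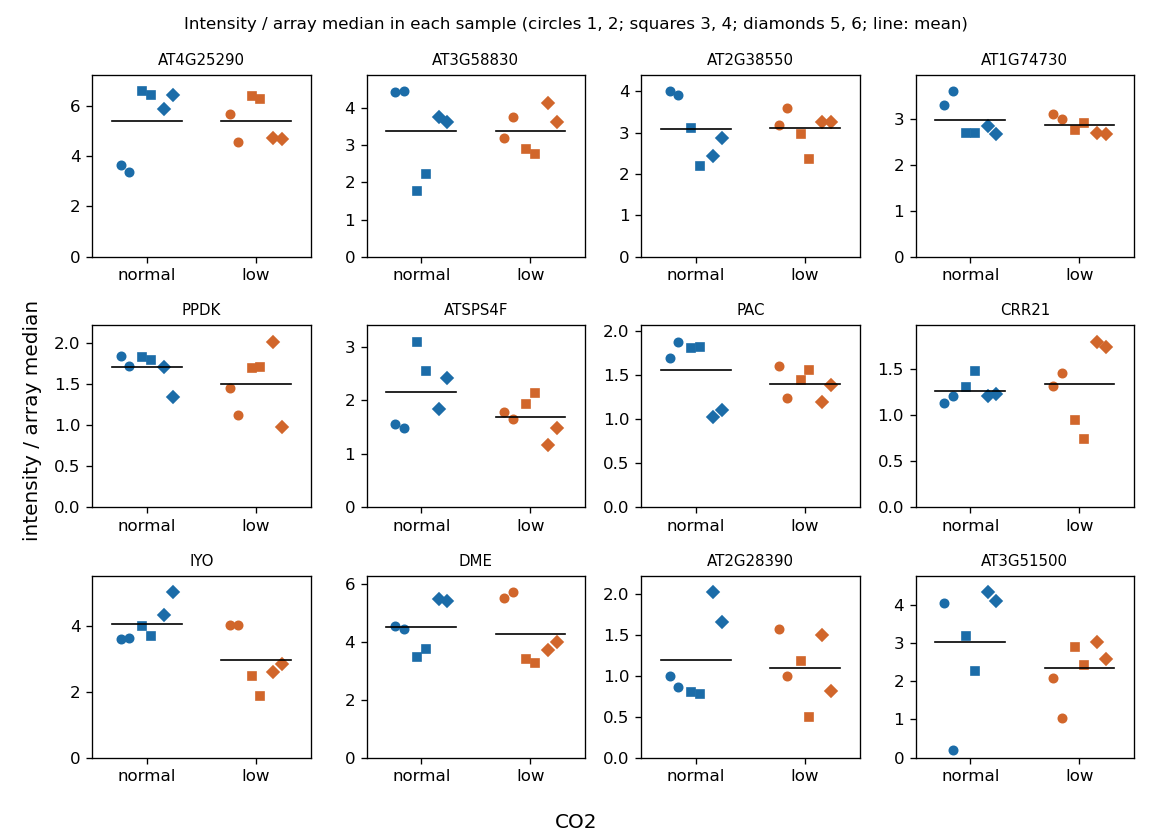
Intensity divided by the array median in each of the 12 samples for 12 steady genes (circles for replicates 1 and 2, squares for 3 and 4, diamonds for 5 and 6, black line for the group mean). Adjacent replicates often sit together, as for AT4G25290 and PAC at normal CO2, and AT3G51500 has a normal CO2 sample near 0.

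The annotation gives a gene name for 17 of the 133. Of those acting in carbon metabolism, PPDK, encoding pyruvate orthophosphate dikinase, which makes phosphoenolpyruvate from pyruvate, had a ratio of 0.877. Its median-divided values were 1.35, 1.76 and 1.85 at normal and 0.980, 1.58 and 2.02 at low CO2, with normal CO2 replicate 6 below the 1.70 to 1.85 of the other 5. ATSPS4F, encoding a sucrose-phosphate synthase, an enzyme of sucrose synthesis, was at 1.47, 2.12 and 3.09 at normal and at 1.16, 1.71 and 2.13 at low CO2, a ratio of 0.784. For PPDK the deposited means were 0.882 ± 0.0729 and 0.535 ± 0.132 (SD, n = 6 each), without overlap. For ATSPS4F they were 1.11 ± 0.321 and 0.607 ± 0.132, with overlap.

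Both named genes of tetrapyrrole synthesis, the pathway of chlorophyll and heme, lay below 1. HEMA3, a gene of glutamyl-tRNA reductase, which makes the precursor of all tetrapyrroles, had values of 1.78, 2.21 and 3.30 at normal and 1.22, 1.91 and 2.17 at low CO2, a ratio of 0.772. SIRB, encoding the sirohydrochlorin ferrochelatase that inserts iron to make siroheme, had values of 1.02, 1.35 and 1.83 against 0.830, 0.998 and 1.22, a ratio of 0.736. After quantile normalization their log2 fold changes were -0.50 ± 0.18 and -0.44 ± 0.14 (SE). Limma called both lower in that fit, among the 26 steady genes it called there, and it did not call HEMA3 on median-divided values. LpxA, a counterpart of the bacterial enzyme that starts lipid A synthesis, was brighter, at 3.20, 4.10 and 5.17 against 2.85, 3.03 and 3.88, a ratio of 0.753. It was called lower in the quantile normalized fit as well. Each of these 3 genes had separate groups on the deposited scale.

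Of the named genes that act in organelles, CRR21, encoding a pentatricopeptide repeat protein needed to edit a plastid transcript of the NDH complex, had a ratio of 1.06. Its normal CO2 samples were tight, at 1.13, 1.21 and 1.47, and its low CO2 samples wider, at 0.738, 1.38 and 1.79. PAC, or PALE CRESS, which chloroplast development requires, had values of 1.03, 1.75 and 1.88 at normal and 1.19, 1.42 and 1.60 at low CO2, a ratio of 0.903. OSB1, encoding a single-stranded DNA-binding protein of organelles, had values of 1.05, 1.23 and 1.71 against 0.820, 1.07 and 1.46, a ratio of 0.822. For PAC and OSB1 the deposited ranges were separate, at means of 0.795 ± 0.148 and 0.504 ± 0.0658 for PAC and 0.680 ± 0.124 and 0.388 ± 0.0711 for OSB1 (SD, n = 6 each).

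Among genes of transcription and chromatin, DME, encoding the DNA glycosylase DEMETER that removes methylated cytosines, had values of 3.48, 4.48 and 5.48 at normal and 3.28, 3.86 and 5.72 at low CO2, a ratio of 0.947. IYO, or MINIYO, which acts with RNA polymerase II, was at 3.59, 3.84 and 5.02 against 1.86, 2.72 and 4.03, a ratio of 0.734. In IYO the overlap came from low CO2 replicates 1 and 2, whereas the other 4 low CO2 samples lay below every normal CO2 sample. RAP74, encoding a subunit of the general transcription factor TFIIF, had a ratio of 1.23 and chr31, a chromatin remodeling gene, of 1.27. The values of chr31 were 4.06, 4.73 and 5.46 at normal and 4.23, 6.44 and 7.14 at low CO2, and those of RAP74 were 1.14, 1.78 and 1.87 against 1.75, 1.96 and 2.37. On the deposited scale these 2 genes had ratios below 1, with means of 2.46 ± 0.207 and 2.18 ± 0.446 for chr31 and 0.847 ± 0.206 and 0.711 ± 0.0806 for RAP74.

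The remaining named genes belong to signalling, membranes and the cytoskeleton. GLR2.7, a glutamate receptor-like gene, was among the closest to 1, with a ratio of 1.04 and values of 1.26, 1.66 and 2.23 at normal and 1.55, 1.76 and 2.03 at low CO2. CML30, encoding a calmodulin-like calcium sensor, had a ratio of 0.719 and values of 1.55, 2.12 and 3.28 against 1.18, 1.60 and 2.15. PRA1.B6, encoding a prenylated Rab acceptor of the membrane traffic system, had a ratio of 1.39 and values of 1.39, 1.75 and 2.20 against 1.98, 2.48 and 3.12, yet its deposited means were 0.934 ± 0.205 and 0.893 ± 0.127 (SD, n = 6 each). TRM31, a member of the TON1 Recruiting Motif family tied to microtubule arrays, had a ratio of 0.951, and DI21, named drought-induced 21, a ratio of 1.16.

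AT2G28390, also known as MON1 and as a SAND family gene, is a widely used reference gene for quantitative PCR in Arabidopsis, and the only one of 12 such genes listed that a single-gene probe measured. Its median-divided values were 0.780, 0.927 and 2.02 at normal CO2 and 0.499, 1.09 and 1.57 at low CO2, a ratio of 0.921. Its spread was large for a steady gene, with a within-group SD of 0.602 on the log2 scale against a median of 0.321 over the 133. In the fit without a block, the 95% interval of its fold change on median-divided values, -0.85 to 0.62 on the log2 scale, reached beyond the window at both ends. On the deposited scale it averaged 0.632 ± 0.333 and 0.391 ± 0.147 (SD, n = 6 each).

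The other 87 steady genes are known here by locus number. Of the 32 genes with a ratio under 0.8, 21 are of this kind, with ratios of 0.689 to 0.787 and normal CO2 means of 0.616 to 2.38: AT2G44760, AT4G40080, AT2G40980, AT1G62150, AT1G49870, AT3G50880, AT3G09050, AT3G15900, AT2G38950, AT4G20300, AT4G00590, AT1G13970, AT3G56010, AT4G24840, AT3G51930, AT3G27550, AT2G04700, AT2G13690, AT2G28660, AT3G16760 and AT1G12100. The 32 genes had a median quantile normalized log2 fold change of -0.55. From 0.8 to 0.9 lay 16 genes, 12 of them AT4G27390, AT1G68660, AT1G73740, AT1G44830, AT1G50390, AT4G21820, AT1G61590, AT1G79480, AT4G13680, AT1G79220, AT2G38500 and AT5G62360, with a median of -0.35 over the 16.

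The largest set, 46 genes from 0.9 to 1.1, had a median of -0.10 after quantile normalization. Not yet named among them are 31, with normal CO2 means of 0.617 to 2.01: AT5G10920, AT2G26110, AT4G21170, AT5G52960, AT5G36470, AT4G13220, AT4G24090, AT1G48570, AT1G55440, AT4G31060, AT1G32160, AT5G26850, AT4G01810, AT3G12000, AT5G35100, AT2G04790, AT4G29750, AT5G66780, AT1G24530, AT3G04560, AT3G44810, AT1G35210, AT2G02590, AT4G22190, AT4G03150, AT1G27660, AT5G47030, AT4G01310, AT1G18290, AT2G43760 and AT4G08280. From 1.1 to 1.2 lay 16 genes with a median of 0.066, including AT5G24690, AT3G04500, AT3G09080, AT1G80450, AT2G23890, AT2G27680, AT5G11010, AT3G27110, AT1G06730 and AT3G13180. Over 1.2 lay 23 genes with a median of 0.25, including AT3G57630, AT2G46300, AT1G01500, AT2G39360, AT3G50180, AT5G06790, AT1G27610, AT5G48440, AT1G73470, AT4G27700, AT1G02260, AT4G15840 and AT5G06990. The ratio of AT3G57630 rested on low CO2 replicate 4, at 17.0 against 2.41 to 3.76 in the other low CO2 samples. Its normal CO2 samples ranged from 3.55 to 5.38. The log2 fold change of AT3G57630 was -0.051 on median-divided and -0.43 on quantile normalized values, so it was not higher at low CO2 there.

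The limits of the rule passed through a continuous range of values. Just inside the lower end of the ratio window were AT1G72890 at 0.685 and AT5G03900 at 0.688, and just outside it AT2G36480 and AT4G29120, both at 0.668. At the upper end AT1G13990 was inside at 1.499 and AT3G20680 at 1.49, while AT5G23540 at 1.5003 and AT5G59060 at 1.51 were outside. At the signal minimum AT4G14380 was inside with a normal CO2 mean of 0.601 and AT3G16310 with 0.606, and AT5G01860 and AT3G56810 were outside with 0.591 and 0.590. AT1G13990 ran from 2.43 over 2.89 to 5.85 at normal and from 4.49 over 4.83 to 7.49 at low CO2, so its ranges overlapped through its highest normal CO2 values.

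Within a CO2 group the steady genes varied mostly between adjacent pairs of replicate numbers (1 and 2, 3 and 4, 5 and 6). The median SD between the means of adjacent samples was 0.314 on the log2 scale, against 0.176 within adjacent samples. The first exceeded the second in 108 of the 133 genes (81.2%), as it did in 80.6% of the 309 well-expressed single-gene probes and in 61.1% of all probes. Replicates 3 and 4 were the highest pair in 84 of the 133 genes at normal CO2 and in 72 at low CO2. Replicates 5 and 6 were the lowest pair in 65 and 57, and replicates 1 and 2 in 41 and 53, without a share of all probes for comparison. The same numbers also moved together across groups: over the 133 genes, deviations of same-numbered samples from their group means correlated at 0.234 to 0.496, a description over genes that share arrays and scaling.

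**Figure D4:**
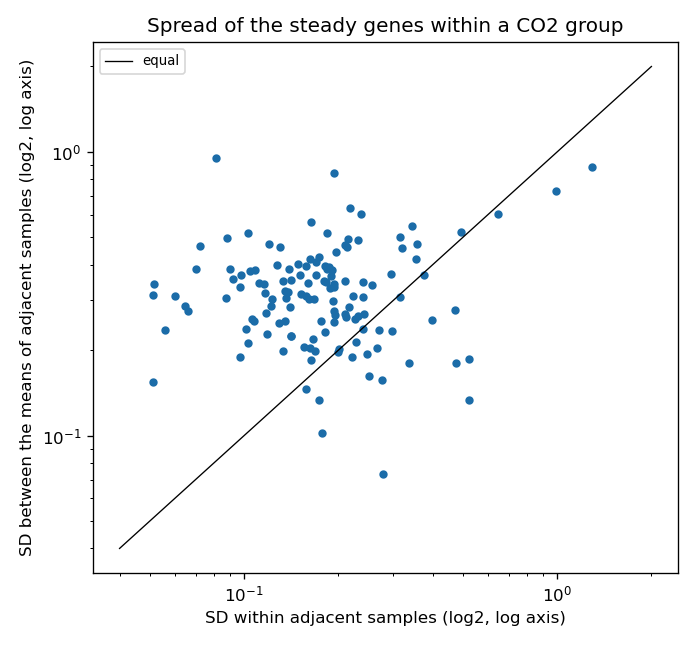
SD within adjacent samples (horizontal) against SD between the means of adjacent samples (vertical) for each of the 133 steady genes, on median-divided log2 values averaged over both CO2 groups, with logarithmic axes. Points above the line of equality, 108 of 133, varied more between adjacent pairs than within them.

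Steadiness over group means did not carry over to every replicate number. When each low CO2 sample was divided by the normal CO2 sample of the same number, all 6 ratios lay in the window of 0.67 to 1.5 for 39 of the 133 genes, against 7.44% of all probes. A further 40 genes had 5 ratios in the window, 27 had 4, 21 had 3 and 6 had 2. PRA1.B6 had 3 of the 6 in the window and IYO had 2, while DME, GLR2.7, chr31 and TRM31 had all 6. With adjacent samples averaged first, all 3 pair ratios lay in the window for 73 genes, against 16.3% of all probes. The ranges of the 3 pair averages no longer overlapped for 15 of the 133 genes, where 43.3% of all probes did not overlap. The rule used the means and ranges of these same values, so these shares are given as a description.

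For most steady genes the interval of the fold change reached beyond the ratio window, so that a difference of 1.5-fold was within their error. On median-divided values the 95% interval by limma had a median half-width of 0.42 on the log2 scale, where the window runs from -0.58 to 0.58. The whole interval lay inside the window for 42 of the 133 genes, against 7.10% of all probes. With adjacent pairs as a random block, which takes up their likeness, the median half-width was 0.54 and 23 genes had their interval inside the window, against 3.11% of all probes. The rule chose the members by this window on these values, so nothing is read from these shares, and the genes inside are listed as a description.

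Those 23 genes were AT3G54550, AT4G01810, DME, AT4G24090, AT1G48570, AT4G21170, AT1G74730, AT4G03150, AT5G36470, AT4G08280, AT5G10920, AT1G70200, CRR21, AT4G35980, AT1G33250, AT2G02590, AT1G24530, AT2G38550, AT4G25290, AT1G32160, AT2G04790, GLR2.7 and AT1G17160. The narrowest was AT1G74730, from -0.34 to 0.25. DME ran from -0.54 to 0.35, CRR21 from -0.52 to 0.55, GLR2.7 from -0.35 to 0.51 and the bright AT1G17160 from -0.32 to 0.51. These intervals are those of the median-divided scale. In the fits without a block, 12 of the 133 genes had their interval inside the window on deposited values (5.23% of all probes). On median-divided values 42 had (7.10% of all probes), and on quantile normalized values 40 had. With adjacent pairs as a random block, 23 had on quantile normalized values, not necessarily the same genes. The shares of all probes on quantile normalized values were not computed.

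**Figure D5:**
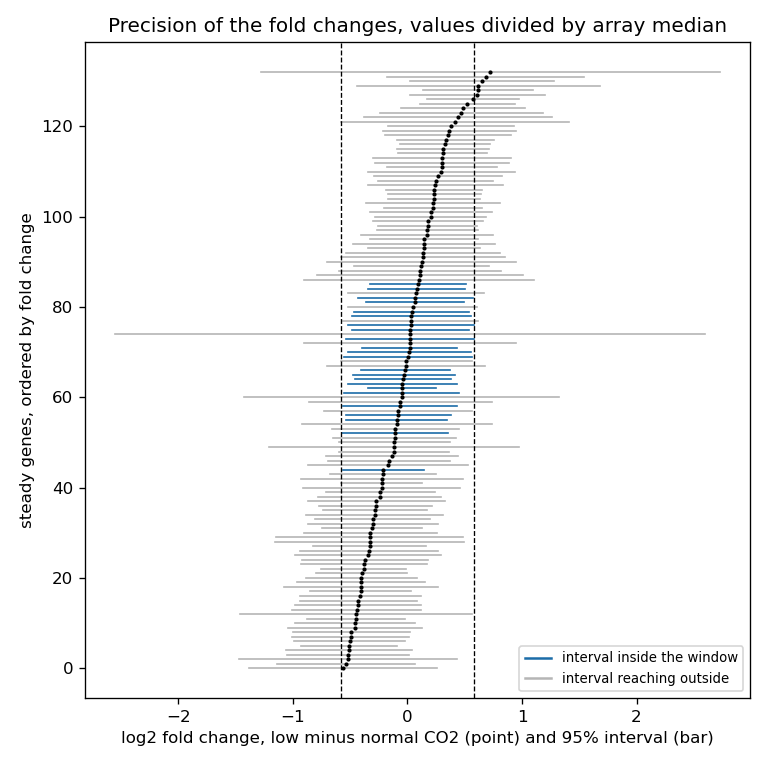
Log2 fold change, low minus normal CO2, on median-divided values for the 133 steady genes (points), with 95% intervals from the fit with adjacent pairs as a random block (bars). The 23 blue intervals lie wholly between the dashed lines at ratios of 0.67 and 1.5, and the other 110 reach beyond at least 1 of them, 14 of these beyond both.

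Probes were binned by their place in a repeat of 288 along the probe numbers. Over the 48 bins the median quantile normalized log2 fold change ran from -0.79 to 1.03, and bin medians from probes numbered up to the middle and from those beyond it correlated at 0.860 (Pearson, a description over 48 bins of the same arrays). The steady genes lay in 45 of the 48 bins of that repeat, 56 of them in bins whose median log2 fold change was above 0 and 77 in bins below 0. When the median deviation of the bin was subtracted from every quantile normalized value, sample by sample, 98 of the 133 genes had a fold change inside the ratio window and 35 outside it. Of the 119 that were inside before the subtraction 88 were inside after it and 31 were not, and 10 of the other 14 came inside. Limma then called 26 of the steady genes lower and 17 higher, against 37.5% of all probes in either direction, 18.0% lower and 19.5% higher, and 8 of the 43 were among the 26 called before. AT4G27700 was then at 1.16 and AT2G33180 at -1.33 on the log2 scale. AT1G17160 moved from -0.49 to -0.15 and ATSPS4F from -0.46 to -0.019. GLR2.7, at -0.00086 before, stood at 0.30 ± 0.10 (SE) and was called higher. The part of the probe's place in the choice of the members was not tested.

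No steady gene neighboured another in gene order in the reference annotation, where 26 of 689 genes with a single-gene probe neighboured another such gene. Of 14 leaf, root and seed marker genes listed, PRK, a leaf gene left out of the members by name, was the only one measured by a single-gene probe, so the tissue could not be checked.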

How the data were processed

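The authors deposited array intensity values, linear, with means near 1 per array. Per the labels, nothing is known of the scanner, background correction, scaling or genome build, so signal over background is unknown, and the small number of arrays limits precision. Gene names came from a platform annotation. Of the 692 single-gene probes, 690 matched a gene of TAIR10.1, which served for names and gene order. Sample titles gave groups and replicate numbers.

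The members and lists were chosen with earlier results of these data known. A 0 was replaced by the smallest positive value on its array before log2 and quantile normalization. Limma 3.58.1 in R 4.3.3 compared 6 low with 6 normal CO2 samples (two-sided, no block) over all 3439 probes, called at a Benjamini-Hochberg adjusted p under 0.05. Median-divided values were fitted the same way. The procedure was tested on simulated data. Same-numbered samples of the groups deviated together (correlations of 0.128 to 0.214 over all probes, every pair above 0.1). Samples of different numbers were not compared across groups. Whether this likeness follows the single number or the adjacent pair of numbers was therefore not tested. Adjacent numbers within a group were also alike (limma's consensus correlation 0.567). Taken alone, this makes intervals from the fit of 6 against 6 too narrow, whereas likeness across groups makes them too wide. On median-divided values, 57 of the 133 intervals lay inside the ratio window with the replicate number as a block, against 42 without a block. The random block of adjacent pairs was set within each group and did not take up likeness across groups.

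Named were the 10 brightest members, the 6 with ratios nearest 1, the 5 with the smallest spread, those beside each limit of the rule, genes of a reference gene list and, added after values were seen, members with a gene name and the 3 with the largest spread. Functional classes were planned from words in gene descriptions. The reference gives symbols and synonyms only, 656 of the 692 genes matched no class, and the classes were not used. Promoter motifs and protein features were planned and not analysed here. Alternatives were other scalings, the replicate number as a block, averages of adjacent pairs, those pairs as a random block, a pseudocount, a filter on dim probes and each sample left out.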

Additional observations from a re-analysis of the deposited data

Results flagged for a closer look

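The 46 named genes gave 92 sets of 6 values, and in 5 of them a sample lay far from the rest, the lowest one in each. About 4.6 flagged sets would be expected by chance if the 6 values were independent. Adjacent replicates were alike, so that number is only a rough guide. For AT3G51500 the lowest sample was replicate 2 in both groups, with a gap to the next sample of 0.789 of the range at normal CO2 and of 0.653 at low CO2. For AT4G20690 the normal CO2 replicate 4 was lowest, with a gap of 0.732. For PPDK the normal CO2 replicate 6 was lowest, with a gap of 0.741, and for AT3G16310 the low CO2 replicate 3, with a gap of 0.740. Gaps were taken on log2 median-divided values. The other 87 steady genes, AT3G57630 among them, were not screened in this way. The sets for AT3G51500 and AT4G20690 were picked for their spread.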

How the results depend on the processing

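The number of steady genes called by limma was 26. It was 74 on deposited values, 13 on median-divided values, 14 with pairs as a random block (29.3% of all probes), 3 on pair averages and 43 once the probe's place in the repeat was corrected for. Median-divided values with pairs as a random block gave 1 (26.2% of all probes), and with pair averages 0 (14.2%; limma; also 0 at unadjusted p). It was 19 to 29 with 1 sample left out and 31 with the replicate block. Over all probes 1457 were called, 618 on pair averages, 1332 to 1425 with 1 sample left out and 1578 with the replicate block. The median log2 fold change of the steady genes, -0.22, was -0.55 on deposited values, -0.018 on median-divided values, -0.15 after 75th percentile scaling and -0.085 with the correction for place, and ran from -0.25 to -0.19 with 1 sample left out. AT1G17160 turned from -0.49 to 0.092 on median-divided values. The cause of these changes was not tested.

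The rule kept 133 genes. It kept 205 with a signal minimum of 0.3, 50 with 1.2 and 85 with a narrower ratio window, and 125 to 141 with 1 sample left out. Applied to quantile normalized values it kept 135, of which 113 were among the 133, and applied to deposited values 102, of which 67 were. Settings with pair averages, pairs as a random block on median-divided values and the probe's place were partly chosen after seeing the data. The replicate block changed no other count by more than 1.5 times, except that median-divided calls went from 13 to 24. Precision is limited by 6 arrays per group that were not independent.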
